A study of Mus musculus with 16 samples.

Results

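The muscle atrophy ubiquitin ligases examined here are the 8 genes Fbxo32, Trim63, Fbxo30, Fbxo31, Fbxo21, Traf6, Ubr2 and Mul1, chosen by their symbols among the 35415 genes of the count and FPKM tables. All 8 were found in both tables and passed the filter on low counts, which left 14749 genes for testing. Their mRNA was measured in the gastrocnemius, a fast calf muscle, of 16 male BALB/c wild-type mice, 8 weeks old when purchased, with 4 mice in each of 4 groups. The C group received saline under the skin of the hind limb under anaesthesia and stood on a stationary treadmill each day. The E group received the same saline injection and ran on the treadmill at 14 m/min for 60 min a day, 6 days a week, for 4 weeks. The T group was inoculated at the same site with CT26 cells, a mouse colon carcinoma line, and, like C, stood on the stationary treadmill. The TE group received CT26 cells and was trained like the E group. Neither whether each sequenced TE mouse formed a tumor nor which leg gave the muscle was stated in the sources used here, and the tumor site lay on the hind limb.

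Ubiquitin ligases choose the proteins that receive ubiquitin, the tag that sends them to the proteasome or changes their fate. Fbxo32 (atrogin-1, MAFbx) and Trim63 (MuRF1) are the classical muscle ligases of atrophy. They are transcribed strongly in fasting, denervation, glucocorticoid excess and cancer cachexia, under FoxO transcription factors that insulin and IGF signaling hold out of the nucleus. Fbxo30 (MUSA1), Fbxo31 and Fbxo21 (SMART) are F-box subunits of SCF ligases like Fbxo32. Traf6 is a RING ligase of inflammatory signaling, Ubr2 recognises destabilising amino-terminal residues, and Mul1 sits in the outer mitochondrial membrane and acts on mitofusin.

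In the GRCm39 genome with GENCODE vM39, Fbxo32 lies on the minus strand of chr15:58039275-58078741 and Trim63 on the plus strand of chr4:134042393-134056948. Fbxo30 lies at chr10:11156770-11173806 (plus), Fbxo31 at chr8:122276177-122305642 (minus) and Fbxo21 at chr5:118114795-118148269 (plus). Traf6 lies at chr2:101508519-101533545 (plus), Ubr2 at chr17:47239218-47321532 (minus) and Mul1 at chr4:138161965-138170337 (plus). Exons of an antisense gene cover 435 exonic bases of Fbxo32 (Gm15943), 211 of Fbxo30 (4930432B10Rik) and 125 of Ubr2 (Gm65233). The strand setting of the counting was not given in the sources used here, so reads from these stretches cannot be assigned to either strand.

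RefSeq promoter windows (GRCm38.p6) were held for 7 of the 8 genes, and Fbxo32 had no entry. The 250 bases before each RefSeq start were searched on both strands for letters that match factors of muscle wasting, and each window matched GRCm39 exactly at 1 place. The FoxO letters TGTTTAC occur in 3.17% of 32851 such windows, and among the 7 ligases in Trim63 only. The glucocorticoid receptor letters GNACANNNTGTNC occur in 0.387% of windows, and again in Trim63 only. The E-box CAGCTG (13% of windows) and TATAAA (12.4%) were likewise found in Trim63 alone, and the NF-kappa B letters GGGNNTTCC (4.98%) in Fbxo21 alone. The STAT letters TTCNNNGAA (7.02%) and the C/EBP letters TTGCNNAAT (2.11%) were in none of the 7. Of the 250 bases searched, 0 in Fbxo30 and 4 in Traf6 lay before the start of the GENCODE gene. For these genes the search therefore covered mainly bases inside the annotated gene. A match is a run of letters and not a measured binding site. The stretches below stop where the earliest GENCODE transcript of the gene begins, and capitals mark the matches. The Trim63 stretch ends before the TATAAA match, which is therefore not shown. They are shown because Trim63 holds most of the matches, Fbxo21 holds the NF-kappa B match, and Fbxo31, whose level moved with Trim63 across mice (below), holds none.
Trim63, chr4:134042181-134042392, plus strand: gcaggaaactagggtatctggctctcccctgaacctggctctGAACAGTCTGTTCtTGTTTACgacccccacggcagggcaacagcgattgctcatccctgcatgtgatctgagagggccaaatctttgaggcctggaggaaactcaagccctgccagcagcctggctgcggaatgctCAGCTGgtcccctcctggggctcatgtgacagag
Fbxo21, chr5:118114585-118114794, plus strand: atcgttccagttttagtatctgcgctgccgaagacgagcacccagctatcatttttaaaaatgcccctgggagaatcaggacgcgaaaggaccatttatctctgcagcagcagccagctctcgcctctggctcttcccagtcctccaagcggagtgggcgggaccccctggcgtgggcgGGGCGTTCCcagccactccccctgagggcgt
Fbxo31, chr8:122305643-122305795, minus strand: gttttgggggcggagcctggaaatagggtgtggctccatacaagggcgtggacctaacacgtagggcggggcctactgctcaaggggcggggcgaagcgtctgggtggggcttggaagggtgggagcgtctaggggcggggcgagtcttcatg
In Trim63 the glucocorticoid receptor match GAACAGTCTGTTC spans bases 208 to 196 before the start and the FoxO match TGTTTAC spans bases 194 to 188, with a single base between them and no overlap. The CAGCTG match begins 72 bases and the TATAAA match 31 bases before the start. The Fbxo21 match GGGCGTTCC begins 71 bases before the start.

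The libraries were of even depth, with 35628211 to 37635741 counts each, and the ligases had between 538 counts (Fbxo30, C1) and 49380 counts (Fbxo32, T3). Skeletal muscle fiber markers summed to 65562.6 to 76134.1 FPKM in all 16 libraries, which fits the labelled tissue. Other cell types also moved with the groups. The 10 neutrophil markers summed to 1.33 to 7.37 FPKM in C, 1.49 to 8.30 in E, 15 to 82.6 in T and 19.9 to 34.8 in TE, with 5 of the 7 tested called higher in T than in C and Elane at 0 in every library. The erythroid markers summed to 361 to 527 FPKM in C and 733 to 820 in T, with 4 of 6 called higher, and to 391 to 581 in E and 863 to 1271 in TE, with 5 of 6 called higher. The connective tissue sums of the E mice all stood above those of the other groups. The fibroblast markers summed to 575 to 816 FPKM in C, 869 to 1107 in E, 475 to 786 in T and 646 to 677 in TE, with none of the 8 called, and the tendon markers to 25.8 to 30.4 in C, 51.3 to 81.8 in E, 23.1 to 40.8 in T and 25.2 to 36.9 in TE, with 2 of 6 called higher in E than in C and 2 called lower in TE than in E. Markers of T and B cells summed to 45.8 FPKM in TE4 and to at most 15.9 elsewhere. Lymph node stroma markers summed to 108 FPKM in TE4 and to at most 36.8 elsewhere. TE4 was also the highest of the 16 mice in Foxo1, Bcl3, Ube2l6 and Gadd45a, which are given below. The part of these cell types in the values below was not tested, and in bulk muscle fewer cells of a type and less RNA per cell cannot be told apart.

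Levels are given as FPKM as deposited, fragments per kilobase of gene scaled to the library total, which allows comparison between genes. Trim63 was the most abundant ligase transcript, with a median of 142 FPKM over the 16 mice, followed by Fbxo32 with 67.0, Fbxo31 with 25.7 and Ubr2 with 15.8. Mul1 had a median of 7.45 FPKM, Fbxo21 4.89, Traf6 4.00 and Fbxo30 1.32. In 16 of 16 mice each gene stood above the next in this order. The ranges over mice overlapped only for Trim63 and Fbxo32 and for Fbxo21 and Traf6. Within a mouse, Trim63 stood 1.51 to 3.63 times above Fbxo32. These 2 genes made up 73.8% to 88.0% of the summed FPKM of the 8 ligases, a sum that ran from 212 to 541 FPKM. The spacing, and at the bottom the order, depended on the gene length used. The deposited FPKM implied 13429 bases for Fbxo30 and 6188 for Traf6, whereas the joined GENCODE vM39 exons gave 6718 and 10364, and with these lengths Fbxo30 (2.65) ranked above Traf6 (2.39) in the medians and in 13 of 16 mice. With the GENCODE lengths Fbxo31 stood above Ubr2, and Fbxo21 above Fbxo30, in 15 of 16 mice with overlapping ranges, and the median ratio of Fbxo31 to Ubr2 was 1.29 in place of 1.72.

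**Figure D1:**
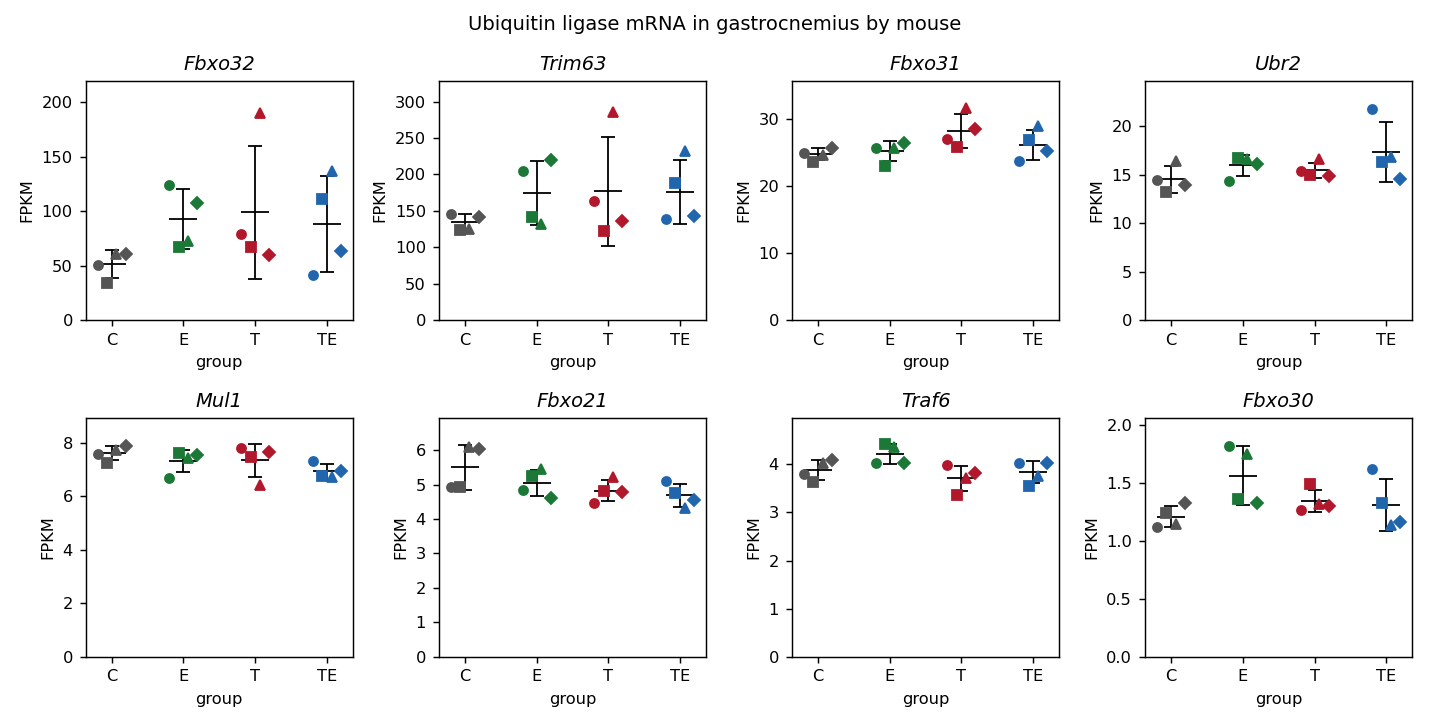
FPKM (y axes, from 0) of the 8 ubiquitin ligases in each mouse by group (x axes), with circle, square, triangle and diamond for mice 1 to 4, a bar at the mean and whiskers of 1 SD (n = 4). Fbxo32 and Trim63 spread widely in E, T and TE, with T3 highest in both (190 and 286 FPKM), whereas Fbxo31, Fbxo21, Traf6 and Mul1 stay within narrow bands in every group.

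Fbxo32 encodes an SCF subunit known for its actions on eIF3f and MyoD. Its FPKM was 50.3, 34.1, 60.7 and 60.3 in the C mice and 124, 66.9, 72.9 and 107 in the E mice. It was 78.6, 67.1, 190 and 59.7 in the T mice and 40.9, 111, 137 and 63.6 in the TE mice. Every E mouse stood above every C mouse, while T4 (59.7 FPKM) fell just under C3 and C4 and TE1 lay among the C mice. The group means were 51.4 ± 12.5 in C, 92.7 ± 27.2 in E, 98.7 ± 61.0 in T and 88.1 ± 43.7 in TE (SD, n = 4). Compared with the C group, the fitted log2 difference was 0.96 in the T group (SE 0.37, 95% confidence interval 0.17 to 1.75, adjusted p = 0.249, edgeR) and 0.81 in the E group (SE 0.37, interval 0.03 to 1.60, adjusted p = 0.338). Neither passed the threshold. The T difference leaned on a single mouse, and without T3 it was 0.45 (adjusted p = 0.67, edgeR), while without T4 it was 1.13. In CPM, counts scaled to the TMM-corrected library total, T4 (421) stood just above the highest C mouse (417).

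Trim63 encodes a sarcomeric RING ligase known to act on myosin heavy chain and other thick filament proteins. Its FPKM was 146, 124, 125 and 141 in C, 205, 141, 132 and 220 in E, 163, 122, 286 and 136 in T, and 138, 188, 232 and 143 in TE. The C mice were close together, and in each of the other groups some mice lay within or near the C range (T2, at 122 FPKM, just under it) and others well above it. The means were 134 ± 11 in C, 174 ± 44.3 in E, 177 ± 74.8 in T and 175 ± 43.9 in TE. The log2 difference from C was 0.42 in T (interval -0.08 to 0.92, adjusted p = 0.452, edgeR) and 0.34 in E (interval -0.16 to 0.84, adjusted p = 0.536). Without T3 the T difference dropped to 0.10, and without E4 the E difference dropped to 0.20. In the other direction, the T difference was 0.55 without T2, and the E difference was 0.46 without E3.

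Fbxo31 was the ligase with the smallest adjusted p in the tumor contrast. It encodes an F-box protein best known for marking cyclin D1 after DNA damage. Its FPKM was 25.0, 23.6, 24.6 and 25.7 in C and 27.0, 25.8, 31.6 and 28.5 in T. All T mice stood above all C mice, although T2 (25.8) and C4 (25.7) almost met. The E mice had 25.6, 23, 25.7 and 26.4 FPKM and the TE mice 23.7, 26.8, 28.9 and 25.2, both overlapping the C range. The log2 difference between T and C was 0.22 (SE 0.08, interval 0.05 to 0.38, adjusted p = 0.207, edgeR), and between all tumor and all tumor-free mice it was 0.16 (interval 0.05 to 0.28, adjusted p = 0.176). Neither passed.

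Fbxo30 encodes an SCF subunit known to be raised in denervated muscle when BMP signaling is lost. Its FPKM was 1.12, 1.24, 1.15 and 1.33 in C and 1.82, 1.36, 1.75 and 1.33 in E. E1 and E3 stood well above the C mice, and E2 and E4 only just, with E4 and C4 both near 1.33. The log2 difference between E and C was 0.33 (SE 0.12, interval 0.09 to 0.58, adjusted p = 0.221, edgeR), and 0.21 in limma on log2(FPKM + 1). In CPM the groups overlapped, with 17.7 in E4 and 17.8 in C4. The T mice had 1.27, 1.49, 1.32 and 1.31 FPKM and the TE mice 1.62, 1.33, 1.14 and 1.16, and both ranges overlapped that of C.

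Fbxo21 was the only F-box ligase with lower means in all 3 treated groups, at 5.50 ± 0.65 FPKM in C, 5.04 ± 0.38 in E, 4.82 ± 0.30 in T and 4.68 ± 0.33 in TE. The C mice were split, with 4.94, 4.93, 6.10 and 6.03 FPKM, and C1 and C2 lay inside the range of every other group. The log2 differences from C were -0.16 in T (interval -0.33 to 0.01, adjusted p = 0.372, edgeR) and -0.16 in E (interval -0.33 to 0.01, adjusted p = 0.378).

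Traf6 ranged only from 3.36 FPKM (T2) to 4.42 FPKM (E2) over the 16 mice. Its group means were 3.89 ± 0.21 in C, 4.21 ± 0.21 in E, 3.71 ± 0.26 in T and 3.84 ± 0.23 in TE. In each of the 4 pairwise comparisons (T and C, E and C, TE and T, TE and E) the groups overlapped. The log2 difference between T and C was -0.04 (interval -0.19 to 0.11, adjusted p = 0.854, edgeR), so an increase of more than 0.11 lay outside the interval.

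Ubr2 had means of 14.5 ± 1.39 FPKM in C, 16 ± 1.11 in E, 15.5 ± 0.77 in T and 17.4 ± 3.08 in TE. The highest value, 21.8 FPKM, was that of TE1, the mouse with the lowest Fbxo32 of its group, and the other 3 TE mice had 16.4, 16.8 and 14.6. The log2 difference was 0.12 between T and C and 0.15 between TE and T, and both intervals included 0. Without C2 the first was 0.07 and without C3 it was 0.17. Without TE1 the second was 0.04 and without TE4 it was 0.25.

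Mul1 had the smallest ratio of highest to lowest value of the 8, with 6.43 FPKM in T3 and 7.89 FPKM in C4. Its means were 7.62 ± 0.27 in C, 7.33 ± 0.42 in E, 7.34 ± 0.62 in T and 6.95 ± 0.28 in TE. T3, highest of all mice in Fbxo32, Trim63 and Fbxo31, was the lowest in Mul1. The log2 difference between T and C was -0.03 (interval -0.18 to 0.13, adjusted p = 0.916, edgeR).

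The effect of the tumor without training was read from T against C. No ligase was called at an adjusted p under 0.05 by edgeR, against 0.678% of all tested genes, and none by DESeq2 or limma. At an unadjusted p under 0.05 the count was 2 of 8, Fbxo32 and Fbxo31, against a background of 14.2%. Fbxo31 was the single ligase whose T mice all stood above the C mice in FPKM, as they did for 2.64% of genes, and no ligase had all T mice below, as 4.21% of genes did. Of the 8 log2 differences 5 were positive, with a median of 0.15 beside 0.00 over all genes.

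The effect of training in tumor-free mice was read from E against C. Again no ligase was called (background 0.0881%, edgeR; also none by DESeq2 or limma), and 2 of 8, Fbxo32 and Fbxo30, had an unadjusted p under 0.05 (background 14.2%). The same 2 genes had all E mice above all C mice in FPKM, which held for 6.28% of genes, and none had all E mice below (2.39%). T against C and E against C share the C mice, so their values are given side by side only. Fbxo32 had 0.96 and 0.81, Trim63 0.42 and 0.34, and Fbxo31 0.22 and -0.01.

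**Figure D2:**
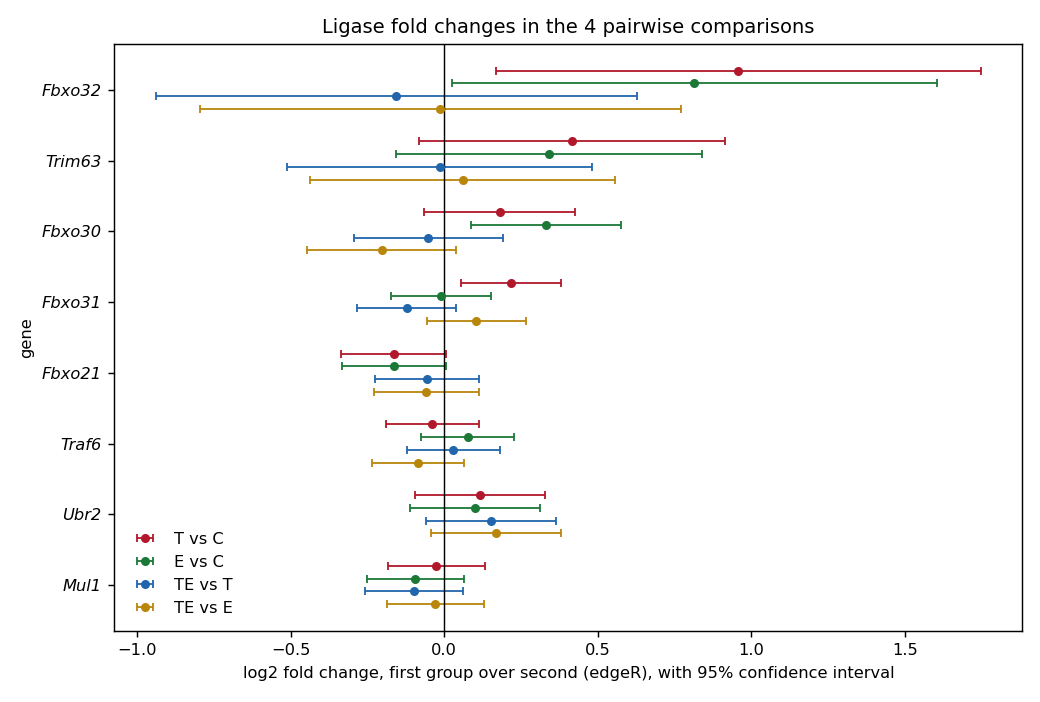
Log2 fold change (x axis) of each ligase (y axis) in the 4 pairwise comparisons, points from edgeR with bars of the 95% confidence interval. The intervals of Fbxo32 are the widest, from 0.17 to 1.75 in T vs C and from -0.94 to 0.63 in TE vs T, and those of Traf6 and Mul1 are narrow and include 0 throughout.

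Whether training changed the ligases of tumor-bearing mice was read from TE against T. No ligase was called by edgeR, DESeq2 or limma, none had an unadjusted p under 0.05 (background 5.88%), and of all tested genes 0% were called by edgeR and 7 genes by DESeq2. No ligase separated the groups in either direction, as 1.49% of genes did with TE higher and 0.976% with TE lower. The log2 differences were -0.16 for Fbxo32 (interval -0.94 to 0.63), -0.01 for Trim63 (interval -0.51 to 0.48) and -0.12 for Fbxo31 (interval -0.28 to 0.04). Leaving out 1 library moved Fbxo31 between -0.18 (without TE3) and -0.07 (without TE1). It moved Fbxo32 between -0.46 (without TE3) and 0.35 (without T3), and Trim63 between -0.19 (without TE3) and 0.30 (without T3). The interval of Trim63 held both a fall and a rise as large as its T against C difference of 0.42, and that of Fbxo32 ended just short of a fall as large as its difference of 0.96. For Fbxo30, Fbxo21, Traf6 and Mul1 the intervals lay between -0.29 and 0.19.

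In trained mice, TE against E, no ligase was called (background 0.231%, edgeR; none by DESeq2 or limma) and none had an unadjusted p under 0.05 (background 9.23%). None separated the groups upward (1.17%) or downward (5.56%). Fbxo32 differed by -0.01 (interval -0.80 to 0.77) and Trim63 by 0.06 (interval -0.44 to 0.56). Fbxo30 had the lowest value, -0.20 (interval -0.45 to 0.04), or -0.12 without E1 and -0.31 without TE1.

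Averaged over both training states, the tumor effect called no ligase (background 1.36%, edgeR; none by DESeq2 or limma), and Fbxo31 was the only 1 with an unadjusted p under 0.05 (background 14.2%). The training effect averaged over both tumor states called none by any of these tools (0.00678% by edgeR) and had none at an unadjusted p under 0.05 (10.8%). The interaction, the change in the tumor effect with training, called none by any of these tools, and 0% of all genes by edgeR beside 20 genes by DESeq2. Fbxo30 alone had an unadjusted interaction p under 0.05 (background 9.21%), with a log2 difference of -0.38 (interval -0.73 to -0.04, adjusted p = 0.521), or -0.24 in limma on log2(FPKM + 1). The interaction of Fbxo32 was -0.97 (interval -2.08 to 0.14, adjusted p = 0.585, edgeR), and it was -0.46 without T3 and -1.27 without TE3. Its E and T means stood 0.81 and 0.96 above C, and with all mice the TE mean stood no higher than either. This depended on single mice. TE stood 0.35 above T without T3 and 0.09 above T without TE1, and 0.23 above E without TE1.

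The ligases differed widely in the spread between mice of a group. The biological coefficient of variation, the spread beyond counting error estimated by edgeR over the 4 groups, was 36.2% for Fbxo32 and 23.5% for Trim63. These values were higher than those of 99.3% and 96.7% of the genes nearest in abundance. The other 6 ligases had 7.71% (Traf6) to 11.7% (Fbxo30), beside a median of 13.3% over all tested genes. Against the genes nearest in abundance, Ubr2 (above 76.2% of them) and Fbxo30 (75.0%) varied more than most, Fbxo31 (52.7%) and Mul1 (39.1%) stood near the middle, and Fbxo21 (21.5%) and Traf6 (10.3%) varied less. Within T the highest Fbxo32 value was 3.17 times the lowest, within TE 3.35 times, within E 1.85 times and within C 1.78 times. The same ratios for Mul1 were 1.21, 1.09, 1.14 and 1.09.

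Fbxo32 and Trim63 varied together. Over the 16 libraries the Pearson r of log2 CPM was 0.89 (permutation p = 2e-05, the smallest that 100000 two-sided permutations can give) and Spearman's rho was 0.77 (permutation p = 0.00094). Without T3 and TE3, the libraries farthest from the median of Fbxo32, r was 0.79 (permutation p = 0.00086), and with the group means removed it was 0.89. A gap in Fbxo32 between 78.6 and 107 FPKM set 5 libraries (E1, E4, T3, TE2 and TE3) apart from the other 11. Within those 11 libraries, a set chosen on Fbxo32 after seeing the data and so of narrower range, r was 0.39 (permutation p = 0.205). Within groups of 4, given as a description, r was 0.42 in C, 0.93 in E, 0.97 in T and 0.95 in TE. This was the only pair tested.

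Ranked among the 14748 other tested genes by r with Fbxo32, as a description over the same 16 libraries, Klhl38 came first (0.92), Trim63 second (0.89), and Phf2 (0.86), Sos2 (0.86) and Vps54 (0.85) followed. Klhl38 is a kelch-like protein, of a family that serves cullin 3 ligases as substrate adaptors. Its FPKM was 21.8, 18.5, 25.9 and 28.3 in C, 31.8, 21.8, 23.4 and 35.6 in E, 29.8, 25.1, 50.9 and 26.3 in T, and 15.9, 37.5, 36.4 and 28.2 in TE. The mice with the most Fbxo32 in each treated group, E1 and E4, T3, and TE2 and TE3, were also those with the most Klhl38. For Trim63 the closest genes were Fbxo32 (0.89), Ccn1 (0.88), Fam13c (0.87), Tgif1 (0.84) and Klhl38 (0.84). Of the other ligases, Fbxo31 came 74th for Fbxo32 (r = 0.70) and 60th for Trim63 (r = 0.70), and with the group means removed 6th (r = 0.85) and 10th (r = 0.84), while Mul1 ran the other way (-0.52 and -0.51). Fbxo30, Fbxo21, Traf6 and Ubr2 had r between -0.39 and 0.19 with both.

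**Figure D3:**
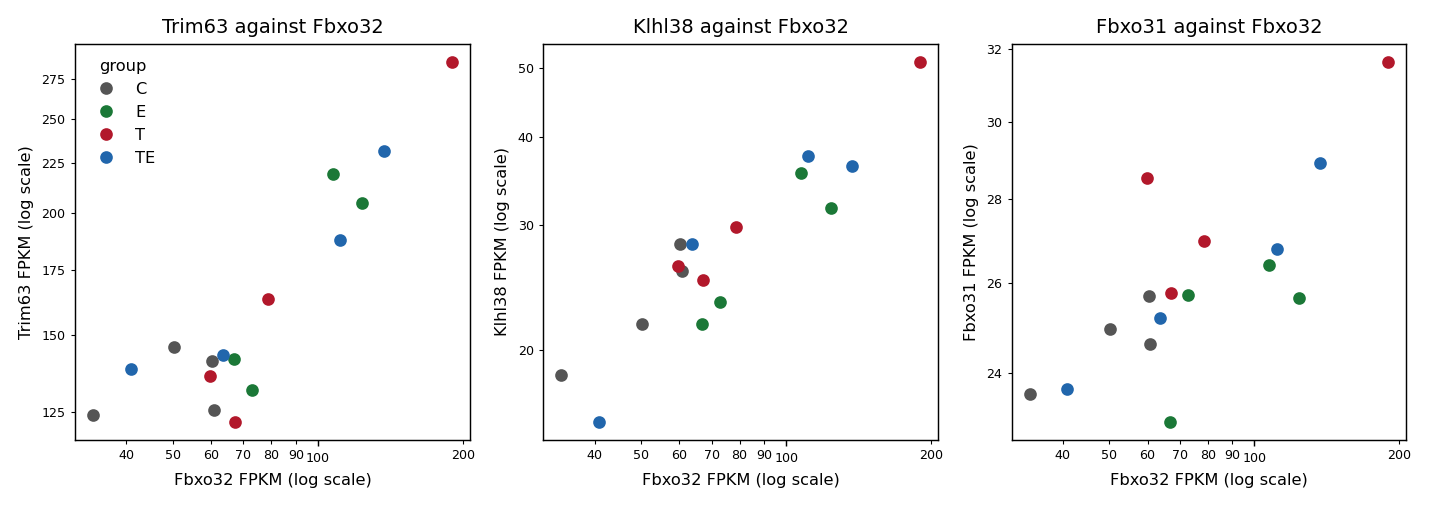
FPKM of Trim63, Klhl38 and Fbxo31 (y axes, log scale) against Fbxo32 (x axes, log scale) in the 16 mice, colored by group. T3 is at the upper right of each panel, with 190 FPKM of Fbxo32, 286 of Trim63, 50.9 of Klhl38 and 31.6 of Fbxo31, and mice of E and TE lie beside it above 100 FPKM of Fbxo32.

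The wider pathway was followed in 8 lists with 185 tested genes outside the 8 ligases. These lists were chosen with earlier results of these data known. Their shares, here and below, are therefore a description and not a test. The calls of list genes here and below are by edgeR unless another tool is named. In T compared with C, 4 of the 185 were called higher and none lower, which is 2.16% beside 0.678% of all tested genes. DESeq2 called more of the 185 in T against C, as given at the end. In TE against E 1 was higher and 1 lower (1.08% beside 0.231%), in E against C 1 was higher (0.541% beside 0.0881%), and in TE against T none was called (0% of all genes). Averaged over training, the tumor effect called 8 higher and none lower (4.32% beside 1.36%).

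Of the 30 upstream regulators, 3 were called higher in T than in C by edgeR and none lower, beside 0.678% of all tested genes called in either direction and with a list median of 0.14 beside 0.00 over all genes. Foxo1, which with Foxo3 drives the transcription of Fbxo32 and Trim63, was at 3.96, 4.26, 5.08 and 4.56 FPKM in C and 7.64, 5.28, 7.61 and 7.17 in T, without overlap (log2 difference 0.66, SE 0.12, adjusted p = 0.0195, edgeR). Foxo3 went from 4.31, 4.44, 4.68 and 4.42 to 6.21, 5.32, 7.35 and 5.37 FPKM (0.47, SE 0.09, adjusted p = 0.0335). Stat3, the effector of IL-6 family cytokines, went from 12.8, 15.2, 14.3 and 13.7 to 20.2, 16.2, 24.2 and 20.3 FPKM (0.56, SE 0.09, adjusted p = 0.0083). The T mice stood above the C mice in all 3. The TE mice had 5.69 to 7.95 FPKM of Foxo1, 4.81 to 5.93 of Foxo3 and 16.7 to 17.2 of Stat3, and TE against T called none of them (adjusted p = 0.942, 0.847 and 0.724). The E ranges overlapped those of TE and T for Foxo1 (4.80 to 6.12 FPKM) and Foxo3 (4.49 to 5.61). Stat3 was at most 15.2 FPKM in E, under every TE and T mouse. TE against E called none of the 3 genes either. The differences were 0.28 for Foxo1 (adjusted p = 0.498, edgeR), 0.13 for Foxo3 (adjusted p = 0.720) and 0.31 for Stat3 (adjusted p = 0.198). Bcl3, a nuclear partner of NF-kappa B, was called in the averaged tumor effect (log2 1.39, adjusted p = 0.0119, but 0.123 in limma on log2(FPKM + 1)), with 0.54 to 0.97 FPKM in C, 0.68 to 1.08 in E, 1.28 to 2.97 in T and 1.08 to 4.28 in TE. This effect also called Foxo1 (0.47, adjusted p = 0.00948, edgeR), Foxo3 (0.30, adjusted p = 0.0315) and Stat3 (0.43, adjusted p = 0.00135). Leaving out 1 library lost these further calls in 0, 10 and 0 of 16 fits. Limma on log2(FPKM + 1) kept only that of Stat3. Akt2, a kinase that restrains FoxO factors, had the second smallest p of the list in TE against T and was not called (-0.15, adjusted p = 0.738). In the 16 fits that each left out 1 library, the call of Foxo1 in T against C was lost in 5 (without C1, C2, C4, T1 or T3, adjusted p up to 0.0815), that of Foxo3 in 6 (without any 1 of the C mice, T1 or T3, up to 0.118) and that of Stat3 in 0 (up to 0.0462). In limma on log2(FPKM + 1) and in an edgeR fit of T and C alone none of the 3 was called, with the highest adjusted p of Foxo1, Foxo3 and Stat3 over the alternatives at 0.164, 0.171 and 0.1.

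**Figure D4:**
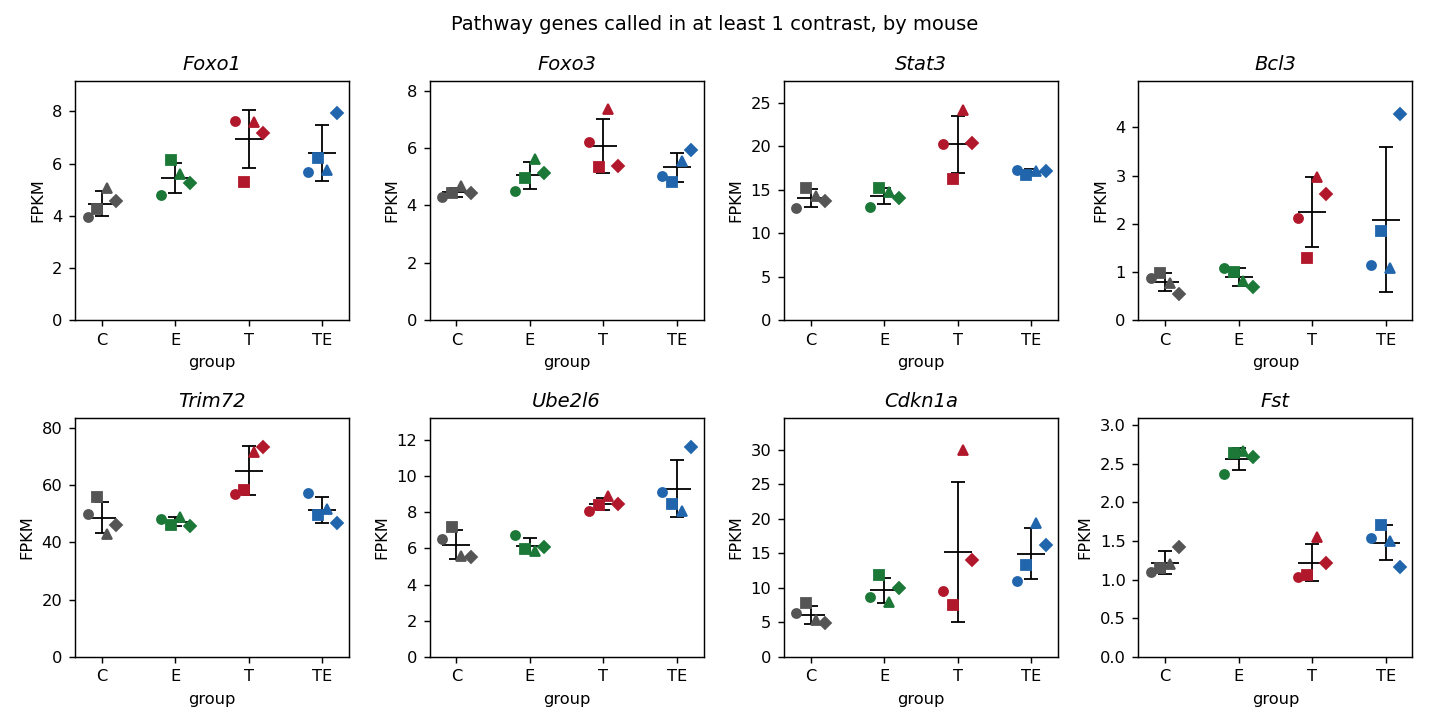
FPKM (y axes, from 0) by group (x axes) of 8 of the 9 pathway genes called by edgeR in at least 1 contrast, with a symbol for each mouse, a bar at the mean and whiskers of 1 SD (n = 4). Foxo1, Foxo3, Stat3 and Trim72 lie higher in T than in C in all mice, Ube2l6 lies higher in T and TE than in C and E, and Fst is highest in E.

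Among the 44 other muscle ubiquitin ligases Trim72 alone was called by edgeR. Trim72 (MG53), a membrane repair protein that also acts as a ligase, was at 49.9, 55.6, 42.9 and 46.0 FPKM in C and at 56.9, 58.2, 71.4 and 73.4 in T (log2 0.44, SE 0.09, adjusted p = 0.0347, edgeR). The call was lost under 5 of 9 alternatives, with an adjusted p of 0.0607 with a replicate block, 0.136 in a fit of T and C alone and 0.164 in limma on log2(FPKM + 1), and in 5 of 16 fits without 1 library (C3, C4, E4, T3 or T4, adjusted p up to 0.139). In TE it was at 57.1, 49.6, 51.6 and 46.7, and the difference from T was -0.35 (adjusted p = 0.693). Asb15 had -0.37 in TE against T (adjusted p = 0.693). The list median in T against C was 0.03.

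Few genes of the machinery that the ligases share were called by edgeR. None of the 13 tested SCF and cullin components was called in T against C (list median -0.04), and Arih1 (0.25, adjusted p = 0.103, edgeR) and Rnf7 (-0.11, adjusted p = 0.415) had the smallest p. Arih1 and Uba3 had the smallest p in TE against T, both with -0.10 (adjusted p = 0.9 for both). Rps27a and Ubb, which encode ubiquitin, were not called in any contrast, with 0.35 for Rps27a (adjusted p = 0.899) and -0.07 for Ubb (adjusted p = 0.945) in TE against T. Of the 29 E1 and E2 enzymes only Ube2l6, the conjugating enzyme of ISG15, was called by edgeR. It stood at 6.77, 5.96, 5.86 and 6.07 FPKM in E and at 9.15, 8.47, 8.06 and 11.6 in TE (log2 0.64, SE 0.11, adjusted p = 0.0149, but 0.0795 in limma on log2(FPKM + 1) and up to 0.0821 without E2 or E3). In T against C it had 0.47 (adjusted p = 0.0604, edgeR, but 0.00944 with DESeq2). In the averaged tumor effect it had 0.56 (adjusted p = 0.00135, edgeR), a call kept under 8 of 8 alternatives and lost in 0 of 16 fits without 1 library. Ube2d1 had -0.31 in T against C (adjusted p = 0.191), and Ube2w (0.22, adjusted p = 0.738) and Ube2k (0.09, adjusted p = 0.896) led the list in TE against T. None of the 16 deubiquitinases was called, with Otud1 at -0.61 (adjusted p = 0.407) and Usp28 at 0.18 (adjusted p = 0.451) in T against C and Usp2 at -0.29 (adjusted p = 0.847) and Usp28 at -0.21 (adjusted p = 0.847) in TE against T.

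None of the 29 described substrates and partners was called in any contrast by edgeR. Myh2 (0.47, adjusted p = 0.106, edgeR) and Mybpc1 (0.38, adjusted p = 0.16), thick filament genes, had the smallest p in T against C, and the list median was 0.11 with 21 of 29 positive (49.7% positive and a median of 0.00 over all tested genes). Both also led in TE against T, with -0.39 for Myh2 (adjusted p = 0.724) and -0.38 for Mybpc1 (adjusted p = 0.709). In T1 to T4, Myh2 was at 338, 428, 576 and 536 FPKM and Mybpc1 at 330, 371, 507 and 544. The slow fiber markers of these mice summed to 538, 540, 972 and 1437 FPKM, beside 414 to 1125 in C. Their adipocyte markers summed to 567, 858, 1032 and 1476, beside 678 to 874 in C. The part of fiber type or other cells in these differences was not tested.

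Of the 20 atrophy-related genes that are not ligases, 19 had a positive difference in T against C, with a median of 0.24, beside 49.7% positive and a median of 0.00 over all tested genes, yet none was called in the main edgeR fit. Cdkn1a (p21), a cell cycle inhibitor raised in atrophying muscle, was at 6.40, 7.80, 5.25 and 4.93 FPKM in C and 9.46, 7.49, 29.9 and 13.9 in T, with T3 again the highest. Its difference was 1.33 (adjusted p = 0.0662, edgeR), or 0.79 without T3 and 1.55 without T2. DESeq2 (adjusted p = 0.0173) and edgeR without the filter on low counts (0.0176) called it, and limma on log2(FPKM + 1) did not (0.284). Sesn1 had 0.37 (adjusted p = 0.108, edgeR). In the averaged tumor effect Cdkn1a (1.01, adjusted p = 0.0295) and Gadd45a (0.39, adjusted p = 0.0402) were called. Both calls were lost with a replicate block (adjusted p = 0.0636 and 0.0750), with limma on log2(FPKM + 1) (0.186 and 0.175) and in 6 of 16 fits without 1 library for Cdkn1a (C3, C4, E1, E3, E4 or TE3, up to 0.0772) and in 12 of 16 for Gadd45a (all but those without E1, E2, T2 or TE1, up to 0.0885). Fst (follistatin), which binds myostatin and activin, was at 1.1, 1.15, 1.21 and 1.43 FPKM in C and 2.36, 2.64, 2.67 and 2.58 in E (1.04, SE 0.15, adjusted p = 0.016). It was lower in TE than in E, at 1.54, 1.71, 1.5 and 1.17 (-0.74, adjusted p = 0.0452). The rise in E was called under all 9 alternatives but was lost in 4 of 16 fits without 1 library (C1, C3, E2 or E4, adjusted p up to 0.0920). The difference between TE and E was not called with a replicate block (0.0838) or with limma on log2(FPKM + 0.1) (0.0759), and it was lost in 14 of 16 fits without 1 library, all but those without T1 or T3 (up to 0.172). In TE against T, Sesn1 had -0.31 (adjusted p = 0.724) and Chrna1 -0.30 (adjusted p = 0.848).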

How the data were processed

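PolyA-selected RNA of 16 gastrocnemius samples was sequenced for the authors, with 4 mice per group. No division into batches was stated in the sources used here. Per the labels and the study's methods, reads were trimmed with fastp 0.20.1, aligned to GRCm39 with HISAT2 2.1.0 and counted per gene with HTSeq 0.11.2, and the authors deposited whole read counts per gene and FPKM values. The annotation release and the strand setting were not given in the sources used here. The deposited FPKM of the ligases equalled count, library total and 1 fixed length per gene.

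Genes with low counts were removed with edgeR's filterByExpr, totals were scaled by TMM (factors 0.947 to 1.05), and edgeR 4.0.16 quasi-likelihood tests (R 4.3.3) were fitted to all 16 libraries with Benjamini-Hochberg adjustment over 14749 genes. Calls are at an adjusted p under 0.05. Correlations used scipy permutations on log2 CPM with a prior count of 2. The tests were checked on simulated counts. DESeq2 1.42.0, limma 3.58.1 on log2(FPKM + 1), other filters, a replicate block and leaving out each library were alternatives. A count of 0 in these libraries allows at most 0.0842 CPM (3 counts), and intervals on counts without molecular identifiers cover no amplification error. No pair of libraries agreed within sampling noise (chi-square per degree of freedom 10.3 to 48.2 within groups).

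The members and lists were chosen with earlier results of these data known. Named genes were the 8 ligases, the 5 genes most correlated with Fbxo32 and with Trim63, and, of each pathway list, all genes called in any contrast and the 2 with the smallest unadjusted p in T vs C and in TE vs T, some of which are not reported here.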

Additional observations from a re-analysis of the deposited data

Results flagged for a closer look

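Of the 32 combinations of ligase and group examined for a sample far from the others, 1 stood out. Fbxo32 in mouse T3 was at 190 FPKM, and its gap to the next T mouse (78.6 FPKM) was 0.855 of the range of the group, above Dixon's 95% critical value for 4 samples. Chance gives such a flag in about 1 in 20 groups. T3 was also the highest of all 16 mice in Trim63 (286 FPKM) and Fbxo31 (31.6 FPKM) and the lowest in Mul1 (6.43 FPKM). It had the lowest sample quality weight of limma-voom, 0.493, and 157 FPKM of summed macrophage markers beside 74.7, 75.3 and 170 in the other T mice. Its summed endothelial markers (205 FPKM) were the highest of all 16 libraries, and within T so were its fibroblast (786 beside 475 to 603) and Schwann cell markers (248 beside 118 to 180). Their part in the Fbxo32 value was not tested.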

How the results depend on the processing

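No ligase was called in any of the 7 contrasts under any of the 172 counts from alternative settings. Of the 56 fitted ligase differences 14 changed sign somewhere, all with a main size of at most 0.16 on the log2 scale. With limma on FPKM, Fbxo31 in E vs C became 0.0253 (pseudocount of 1, with or without a mean FPKM of at least 1) or 0.0262 (pseudocount of 0.1), and Trim63 in TE vs T became 0.0380 or 0.0384. With limma-voom sample weights, chosen after seeing the data, Fbxo32 and Trim63 in TE vs T became 0.0200 and 0.156. The interaction of Mul1 became 0.00249 with DESeq2, 0.00242 with its size factors in edgeR and 0.00808 without the filter on low counts. The cause was not tested.

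Leaving out 1 library at a time gave -0.0931 to 0.00460 for Traf6 and -0.0747 to 0.0424 for Mul1 in T vs C, and -0.317 to 0.228 for Fbxo32 and -0.115 to 0.209 for Trim63 in TE vs E. It gave -0.0464 to 0.0258 for Fbxo31 in E vs C. In TE vs T it gave -0.460 to 0.347 for Fbxo32, -0.189 to 0.298 for Trim63, -0.161 to 0.0211 for Fbxo30 and -0.0108 to 0.0839 for Traf6. The averaged tumor effect ran from -0.0668 to 0.0252 for Fbxo30 and -0.0516 to 0.00810 for Mul1, and the interaction from -0.0851 to 0.00818 for Traf6, -0.0634 to 0.148 for Ubr2 and -0.0686 to 0.0461 for Mul1. Without T3 the TE vs T value was 0.347 for Fbxo32 and 0.298 for Trim63, the upper end of both ranges.

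The number of pathway genes called in T vs C was 14 with DESeq2 against 4, and ran from 1 (without C4 and without T3) to 8 (without T2). Of the 15 pathway calls by edgeR over all contrasts, those of Fst in E vs C and of Stat3 and Ube2l6 in the averaged tumor effect were kept under every setting that used all libraries. Over all genes edgeR and DESeq2 gave 100 and 423 calls in T vs C, 34 and 179 in TE vs E, 13 and 257 in E vs C, 0 and 7 in TE vs T, 201 and 479 for the averaged tumor effect, 1 and 97 for training and 0 and 20 for the interaction, and limma on log2(FPKM + 1) gave 12 in T vs C. With GENCODE vM39 lengths Fbxo30 ranked 7 and Traf6 ranked 8, and with TMM-scaled totals no rank moved. The correlation of Fbxo32 and Trim63 ran from 0.845 to 0.910 without 1 library and was 0.392 in the 11 libraries with under 100 FPKM of Fbxo32, a limit chosen after seeing the data.

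The data showed no sign that replicate numbers pair the mice. Deviations from the group mean correlated between -0.241 and 0.214 for equal numbers (mean -0.0102, beside 0.00357 for unequal numbers). In 5 of 16 libraries the best match had their own number. With a replicate block the pathway genes called in T vs C were 3 against 4, no ligase was called, and Trim63 in TE vs T became 0.0167.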
